A study of Homo sapiens with 4 samples.

Results

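The 8 genes described here are NODAL, its relative GDF3, the co-receptor CRIPTO, the antagonists LEFTY1 and LEFTY2, the inhibitor SMAD7, and the transcription factors OTX2 and FOXA2, out of 20037 genes named by a probe with 1 symbol. They were followed through every array probe that the platform annotation names for them. The cells were H9, a long-established line of human embryonic stem cells. The annotation gave 14 probes, of which 10 were detected on at least 1 array and 4 on none. A probe was called detected on an array where its deposited detection p-value, which tells how many of the negative controls outshone it, was under 0.01. All cells were kept on matrigel in E8, a defined serum-free medium, and were collected on day 2. The 4 groups were high density (over 90% confluence) with 20 mM sodium bicarbonate added to E8, high density in unmodified E8 (control), low density (under 70% confluence) with the same added bicarbonate, and low density in control medium. Bicarbonate is the main buffer of such media, and the title of the series concerns the acidity of the medium of dense cultures. With 1 Illumina expression array for each group, no difference has a replicate check, no p-value is given, and the number of arrays limits the precision. H9 is a single line, and the labels do not say which of the 4 RNA samples came from cultures set up together.

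NODAL is a secreted ligand of the TGF-beta family. It binds activin receptors together with the membrane-anchored co-receptor CRIPTO, and the receptors phosphorylate SMAD2 and SMAD3, which enter the nucleus with SMAD4 and bind DNA with partners such as FOXH1. NODAL itself, LEFTY1, LEFTY2 and SMAD7 are known targets of this signal, and the last 3 of them dampen it. In human embryonic stem cells the NODAL and activin signal helps to keep NANOG on, and stronger signalling drives the cells toward endoderm. OTX2 is a homeodomain factor of the epiblast and the anterior neural plate, and FOXA2 is a forkhead factor of the endoderm, node and floor plate.

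The regions around the transcription starts are shown to put the known SMAD and FOXH1 target letters in view. Whether these letters have a part in the density differences below was not tested. RefSeq promoter sequences (GRCh38.p14, 250 bases before and 50 after a start) were available for 5 of the 8 genes, with 9 starts in all, and none was available for LEFTY1, LEFTY2 or FOXA2. The letters CAGAC, a SMAD element, and AATNCACA, a FOXH1 element, were searched on both strands without overlap between the motifs, and matches stand in capitals. The 3 starts printed are those of GDF3 (chr12:7695726-7696025, minus strand), the OTX2 start listed second (chr14:56805618-56805917, minus strand) and the SMAD7 start listed first (chr18:48950916-48951215, minus strand). They are the starts with a FOXH1 match or more than 1 SMAD match.
GDF3: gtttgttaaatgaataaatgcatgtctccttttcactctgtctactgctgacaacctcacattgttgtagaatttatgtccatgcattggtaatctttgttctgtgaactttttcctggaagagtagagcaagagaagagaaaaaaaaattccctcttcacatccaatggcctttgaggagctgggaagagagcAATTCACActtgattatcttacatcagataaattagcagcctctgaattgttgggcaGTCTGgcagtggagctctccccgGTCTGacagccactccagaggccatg
OTX2: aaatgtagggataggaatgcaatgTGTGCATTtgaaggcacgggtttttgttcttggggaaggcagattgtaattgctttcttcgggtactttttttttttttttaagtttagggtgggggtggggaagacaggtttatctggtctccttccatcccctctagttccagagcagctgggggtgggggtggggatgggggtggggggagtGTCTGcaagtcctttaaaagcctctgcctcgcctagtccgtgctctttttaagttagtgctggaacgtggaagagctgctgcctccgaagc
SMAD7: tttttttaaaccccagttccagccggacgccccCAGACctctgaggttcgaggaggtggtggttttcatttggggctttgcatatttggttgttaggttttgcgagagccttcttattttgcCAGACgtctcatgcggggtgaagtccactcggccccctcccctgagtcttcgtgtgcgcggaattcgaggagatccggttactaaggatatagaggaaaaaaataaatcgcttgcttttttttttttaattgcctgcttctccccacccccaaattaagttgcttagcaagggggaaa
The FOXH1 letters began 56 bases before the GDF3 start and 226 bases before this OTX2 start. The SMAD letters began 1 and 24 bases after the start of GDF3, 41 bases before this start of OTX2, and 217 and 128 bases before this start of SMAD7. One further SMAD7 start held them 193 bases before it, and the start of NODAL 237 bases before it. AATNCACA was found in 2 of the 9 windows, against 3.31% of 35116 windows of the same length. CAGAC was found in 5 of the 9 windows, against 45.3% of all, so this short motif is common everywhere. TAATCC, a motif of OTX factors, was in 0 of the 9 windows and in 6.36% of all. A match describes these letters only and shows no binding.

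All values below are normalized log2 intensities unless raw intensities are named. On each of the 10 probes detected on at least 1 array, both low-density arrays lay above both high-density arrays. The share of all detected probes with this order was not counted, so this count only describes the 10 probes and cannot be weighed. For FOXA2, LEFTY1 and GDF3, detection at low density only nearly fixes the order. On the whole, 8554 genes were detected on all 4 arrays, and 10457 on at least 1. The arrays detected between 14128 and 15213 of 47293 probes, and their raw median intensity was 117.4 at high density with bicarbonate and between 153.5 and 166.6 on the other arrays. Markers of pluripotent cells were present on each array, with 11 or 12 of 12 detected, and those of the primitive streak (0 of 9) and of trophoblast and amnion (0 of 12) were detected on none. Levels of different probes are not set against each other, because probes differ in how brightly they report the same RNA.

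**Figure D1:**
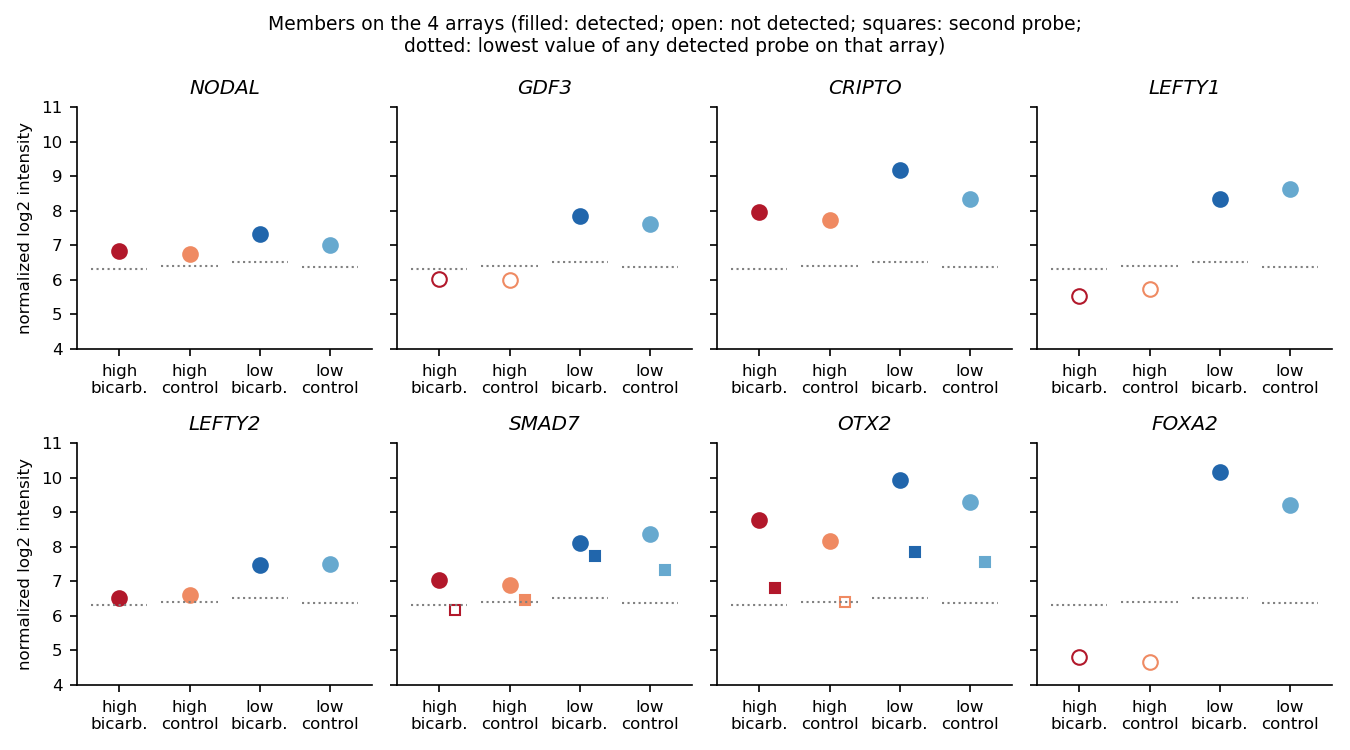
Normalized log2 intensity (vertical axis) of the 8 genes on the 4 arrays (horizontal axis), with a circle for the probe that stands for the gene and a square for a second detected probe. Filled symbols mark detection and open ones its absence, and the dotted line is the floor of detection on that array (its dimmest detected probe). FOXA2, LEFTY1 and GDF3 are open at high density and filled at low density.

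Of the ligands, NODAL was dim and varied least. Its probe (ILMN_1712537) read 6.83 at high density with bicarbonate, 6.75 at high density in control medium, 7.34 at low density with bicarbonate and 7.02 at low density in control medium. It was detected on all 4 arrays, with raw intensities of 182.7, 240.5, 268.4 and 282.8 in the same order. The lowest raw intensities of any detected probe were 153.6, 217.4, 204.5 and 224.7 on these arrays, so NODAL stood little above the limit. GDF3, a NODAL-like ligand of pluripotent cells, was seen at low density only. Its normalized values were 6.02 at high density with bicarbonate and 6.01 in the high-density control, with detection p of 0.0169 and 0.0195, against 7.84 at low density with bicarbonate and 7.62 in the low-density control.

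The co-receptor CRIPTO was detected on every array through 1 of its 2 probes. It read 7.97 at high density with bicarbonate, 7.72 in the high-density control, 9.19 at low density with bicarbonate and 8.35 in the low-density control. Low density with bicarbonate stood highest, and the other low-density array stood above both high-density arrays. The second probe was detected on no array. CRIPTO has a close retrogene copy, CRIPTO3, and whether the probe also reads it was not tested.

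The LEFTY antagonists bind NODAL and its co-receptor and block the signal. LEFTY1 read 5.53 at high density with bicarbonate and 5.73 in the high-density control, neither detected, against 8.34 at low density with bicarbonate and 8.63 in the low-density control. Its raw intensities were 124.7 and 181.3 on the high-density arrays, with bicarbonate first, against 425.4 and 601.1 on the low-density arrays in the same order. LEFTY1 was thus not above the detection threshold at high density and well above background at low density. LEFTY2 read 6.52, 6.59, 7.46 and 7.49 from high density with bicarbonate to the low-density control, detected throughout but close to the limit on both high-density arrays. The LEFTY genes are near-identical neighbours, and how far each probe reads the other gene is uncertain.

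SMAD7, an inhibitory SMAD that blocks the receptors and recruits ubiquitin ligases to them, was detected on all 4 arrays through its brighter probe. It read 7.05 at high density with bicarbonate, 6.89 in the high-density control, 8.10 at low density with bicarbonate and 8.38 in the low-density control. Its second probe read 6.16, 6.46, 7.74 and 7.34 in that order and was not detected at high density with bicarbonate. The probes agreed on the order of the densities and not on the order of bicarbonate and control. At high density the brighter probe stood little above the limit. Its raw intensities there were 198.0 with bicarbonate and 252.7 in control medium, where the lowest of any detected probe were 153.6 and 217.4.

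OTX2 was detected on all 4 arrays through its brightest probe (ILMN_1688075). Raw intensities were 437.7 at high density with bicarbonate, 429.4 in the high-density control, 1076.6 at low density with bicarbonate and 870.8 in the low-density control. The normalized values were 8.78, 8.16, 9.94 and 9.28. Bicarbonate stood above control at each density, and both low-density arrays above both high-density ones. The second OTX2 probe read 6.81, 6.40, 7.85 and 7.55, the same order, and the remaining probe was detected on none.

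FOXA2 lay at background at high density and gave a bright signal at low density. Its probe (ILMN_1668052) had raw intensities of 98.3 at high density with bicarbonate and 121.1 in the high-density control, against 1234.6 at low density with bicarbonate and 838.0 in the low-density control. The detection p was 0.5455 and 0.8922 on the high-density arrays, so most negative controls were brighter there. Normalized, FOXA2 read 4.82 and 4.66 at high density against 10.15 and 9.22 at low density, with bicarbonate first in each pair. All of this rests on 1 of 3 FOXA2 probes, since the other probes were detected on no array.

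The first comparison set high against low density in control medium. All 8 genes had the lower value at high density, and 7 of them by at least 1.5-fold, a size chosen in place of a test. SMAD7 was lower by a log2 difference of -1.49 (2.81-fold) and OTX2 by -1.12 (2.17-fold). LEFTY2 differed by -0.90 (1.86-fold), CRIPTO by -0.64 (1.56-fold) and NODAL by -0.27 (1.21-fold), which is inside the limit. Of 8936 genes measured on both arrays, 41 were as low as SMAD7 or lower and 168 as low as OTX2, while 2498 were as low as NODAL. A gene detected on 1 of both arrays has only a bound, its bright value against the lowest detected value on the dim array or its own dim value where that is higher. By this bound FOXA2 was at least 7.0-fold lower at high density, LEFTY1 at least 4.66-fold and GDF3 at least 2.32-fold. Without background correction these bounds were 3.35, 2.43 and 1.52.

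Of the 5 genes measured on both arrays 4 were at least 1.5-fold lower, against 11.9% of all measured genes, and 0 were higher. The 3 genes with a bound were all past 1.5-fold. Of the 1110 genes detected on 1 of both arrays, 12.5% were that much lower by bound and 13.3% higher. The direction of the 3 was fixed by their detection at low density only, so it is not a separate result. The median difference of the 5 measured genes was -0.90, against 0.01 over all genes. The SMAD7 call was smaller on its second probe, at -0.88. The CRIPTO call ended without background correction (-0.42), with an offset of 50 (-0.57) and with the authors' deposited values (-0.58), and the LEFTY2 call ended without background correction (-0.45). Between the brightest and the second probe of 1738 genes, the differences of this comparison disagreed with an SD of 0.50, a spread that holds no variation between cultures. In bulk RNA, fewer cells that express a gene and less of its RNA per cell cannot be told apart.

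**Figure D2:**
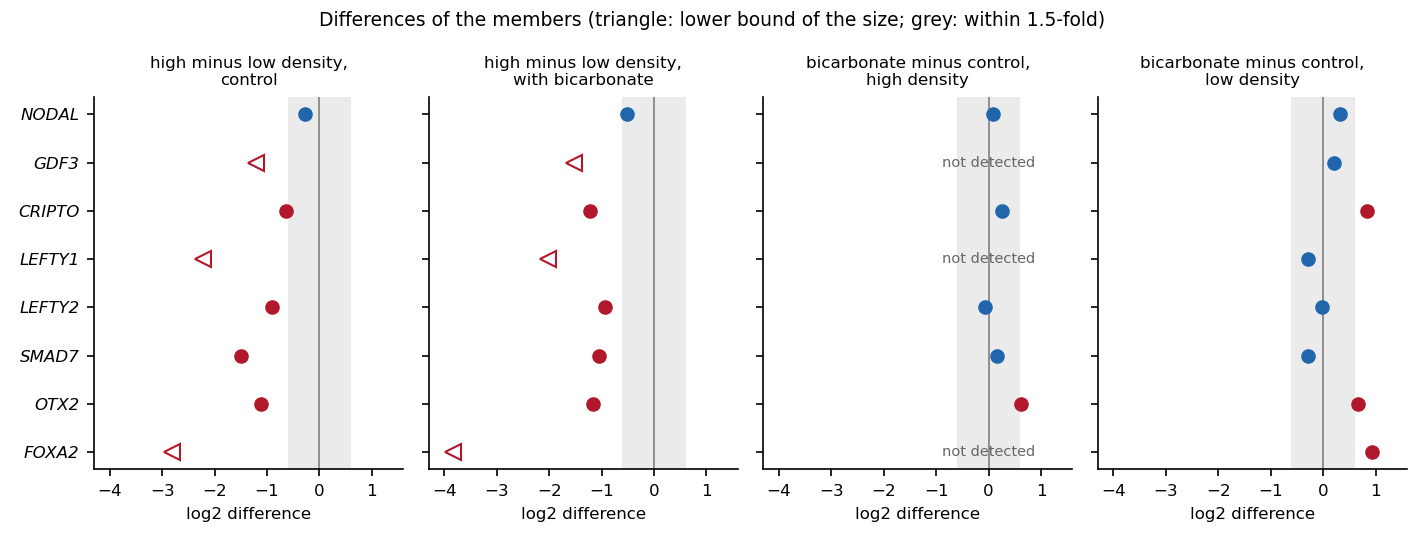
Log2 differences of the 8 genes (horizontal axis) in the 4 comparisons. Circles are genes measured on both arrays, triangles are lower bounds of the size, red marks a size of at least 1.5-fold and the grey band the range below it. The density panels hold 7 red symbols each, all below 0, and the bicarbonate panels hold 1 at high density and 3 at low density, all above 0.

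The same comparison with added bicarbonate uses the other pair of arrays and shares none with the first. Both comparisons use the same probe for each gene, and all 4 arrays were normalized together, so they are not fully independent. OTX2 was again lower at high density, by -1.16 (2.24-fold), and CRIPTO by -1.22 (2.32-fold). SMAD7 differed by -1.05 (2.07-fold), LEFTY2 by -0.93 (1.91-fold) and NODAL by -0.51 (1.42-fold). The bounds were at least 14.28-fold for FOXA2, at least 4.09-fold for LEFTY1 and at least 2.88-fold for GDF3, all lower at high density, and 5.98, 2.16 and 1.71 without background correction. The second OTX2 probe, measured on both arrays here, gave -1.04. The LEFTY2 call ended without background correction (-0.46). Thus 4 of 5 measured genes were at least 1.5-fold lower, against 12% of 8836 genes. All 3 bounded genes were past 1.5-fold too, where 10.6% of 1306 were that much lower and 13% higher. Their direction was again fixed by detection at low density only. The median of the measured genes was -1.05, against -0.03 over all genes.

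**Figure D3:**
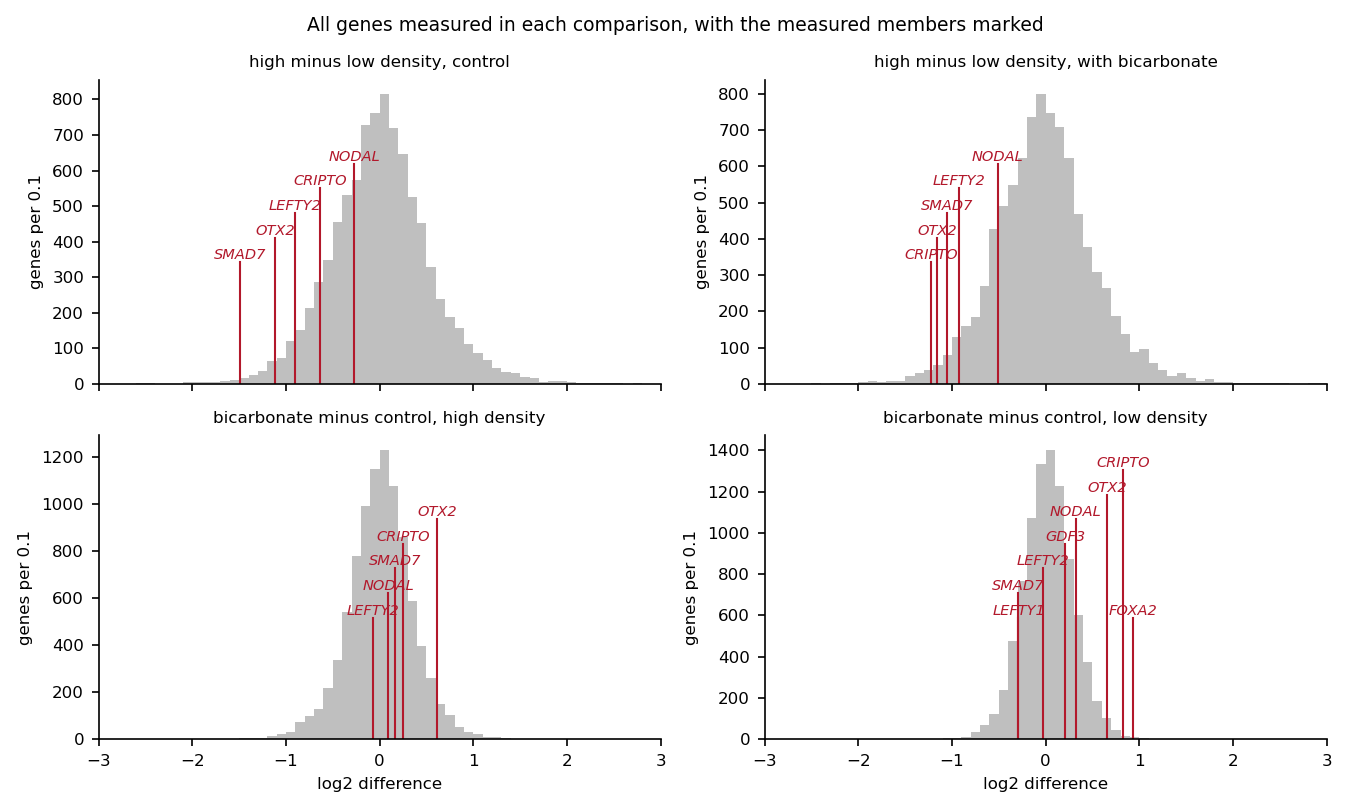
Histograms of the log2 differences of all genes measured in each comparison (vertical axis, genes per bin of 0.1), with red lines at the measured members. The heights of the lines only separate the names and carry no value. In both density panels the lines stand left of 0, and with bicarbonate at low density FOXA2 (0.93), CRIPTO (0.83) and OTX2 (0.66) stand in the right tail.

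Added bicarbonate was set against control at each density to ask how these genes stood when more buffer was present. At high density FOXA2, LEFTY1 and GDF3 were detected on neither array. OTX2 was higher with bicarbonate by 0.61 (1.53-fold), just past the limit, and 354 of 9188 genes were as high. CRIPTO differed by 0.25, SMAD7 by 0.16, NODAL by 0.09 and LEFTY2 by -0.07. So 1 of 5 measured genes was at least 1.5-fold higher, against 4.49% of all, and the OTX2 call ended under 3 other ways of processing, where it lay below the limit. The median of the 5 genes was 0.16, against 0.02 over all genes. The level of OTX2 with bicarbonate at high density, 8.78, still lay below that of the low-density control, 9.28.

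At low density all 8 genes were measured, and the transcription factors and the co-receptor stood higher with bicarbonate. FOXA2 was higher by 0.93 (1.91-fold), a size reached by 14 of 8973 genes. CRIPTO was higher by 0.83 (1.78-fold), reached by 30 genes, and OTX2 by 0.66 (1.58-fold), reached by 109. The second OTX2 probe gave 0.30, less than the limit, and the OTX2 call ended without background correction (0.56) and with the mean of all detected probes (0.48). These 3 of 8 genes at least 1.5-fold higher stand against 2.24% of all genes. The ligands NODAL (0.32) and GDF3 (0.21) differed less, LEFTY2 by -0.03, and LEFTY1 and SMAD7 by -0.29 each. The median of the 8 genes was 0.27, against 0.03 over all genes. The second SMAD7 probe went the other way, at 0.40, so that gene has no settled direction here. Disagreement between probes of a gene had an SD of 0.41 in this comparison and 0.36 in that at high density.

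Whether bicarbonate acted alike at both densities was read from the difference between its 2 differences, high minus low density, for the 5 genes detected on all 4 arrays. It was -0.58 for CRIPTO (0.25 at high density and 0.83 at low density), 0.44 for SMAD7 and -0.24 for NODAL. It was -0.04 for both LEFTY2 and OTX2. Of 8554 genes, 21.7% lay as far from 0 as CRIPTO, 33.7% as SMAD7 and 92% as OTX2, so none of these values stood apart from the bulk of genes. No test of this difference is possible with 1 array per group.

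Detection itself split the densities. FOXA2, LEFTY1 and GDF3 belonged to 163 genes detected on both low-density arrays and neither high-density array, which is 1.56% of the 10457 genes detected anywhere. HESX1, a homeodomain repressor of the anterior neural plate and pituitary, was another of them, with values of 5.86 at high density with bicarbonate, 5.31 in the high-density control, 8.61 at low density with bicarbonate and 7.83 in the low-density control. At high density it was at least 2.68-fold lower in control medium and at least 4.90-fold lower with bicarbonate. At low density it was 0.77 higher with bicarbonate, as OTX2 and FOXA2 were. AFP, the fetal serum protein of yolk sac and liver, read 5.51, 5.76, 8.14 and 7.48 over the same arrays. Its bounds were at least 2.10-fold lower at high density in control medium and at least 3.56-fold with bicarbonate. Its bicarbonate difference at low density was 0.66. AFP too was among the 163 genes, so the direction of the HESX1 and AFP bounds was fixed by detection at low density only.

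The endoderm markers, a list of 12 genes of which 10 were named by a probe, did not follow FOXA2 as a whole. At high density 1 of 10 was detected, FOXA3, and at low density 3 of 10, FOXA2, AFP and FOXA3. With FOXA2 left out, the normalized intensities of the other 2, AFP and FOXA3, were summed on the same probes throughout. The sum was 530 at high density with bicarbonate and 421 in the high-density control. At low density it was 828 with bicarbonate and 662 in control medium. AFP came into this sum only through its detection at low density, which in part fixes the order of the sums. FOXA3, a relative of FOXA2, was detected on every array and differed by -0.40 between the densities in control medium and by -0.17 with bicarbonate. SOX17, GATA6, GATA4 and CXCR4, further genes of the endoderm list, were detected on no array, nor were the primitive streak genes TBXT, EOMES, GSC and MIXL1. Of 10 genes of the OTX and anterior neural plate list named by a probe, PAX6, SOX1, SIX3, LHX2, OTX1 and RAX were detected on none. ZIC2, an early neural and pluripotency factor, was 0.66 higher at high density with bicarbonate and 0.06 in control medium.

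The rest of the pathway was described from lists of ligands, receptors, proteases, SMADs, antagonists, inhibitors and targets. They hold 41 other genes named by a probe, and those measured in the density comparisons stood on both sides of 0. In control medium 1 of 20 measured genes was at least 1.5-fold lower at high density and 3 were higher, around a median of 0.02, where 11.9% and 12% of all measured genes were. With bicarbonate, 3 of 18 lay lower at high density and 2 lay higher, around a median of 0.19, against 12% and 11.5% of all. Of the genes with only a bound, 1 of 3 was lower in control medium and 1 of 5 with bicarbonate, and 0 were higher. These counts are too small to set apart from the shares of all genes. Bicarbonate against control gave 2 of 21 lower and 1 higher at high density, against 4.47% and 4.49% of all genes. At low density 0 of 20 were 1.5-fold apart in either direction, against 1.48% lower and 2.24% higher of all.

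Among ligands, GDF11, which signals through the same receptors, was lower at high density by -0.80 in control medium and -0.73 with bicarbonate. Its second probe gave 0.02 and 0.20, so its direction rests on the choice of probe. INHBA, INHBB, GDF1, TGFB1 and TGFB2 were detected on no array. Among receptors, ACVR1B, the type I receptor for NODAL and activin, went the other way from CRIPTO, higher at high density by 0.67 in control medium and 0.55 with bicarbonate. The type II receptors ACVR2A (0.10) and ACVR2B (0.39) lay inside the limit in control medium. TGFBR3, the TGF-beta co-receptor betaglycan, was lower at high density by -1.10 with bicarbonate and -0.21 without.

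SMAD3, a carrier of the signal, was 0.95 higher at high density in control medium and 0.19 with bicarbonate. At high density its bicarbonate difference was -0.74. SMAD4, the shared partner, differed by -0.06 and -0.16 between the densities, and SMAD2 was detected on no array. FOXH1 was dim, at 6.77 and 6.48 at high density, with bicarbonate first, against 6.45 and 6.93 at low density, where only the control was detected.

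Inhibitors and antagonists stood on both sides of 0. PMEPA1, a TGF-beta target that sequesters SMADs, was singled out after its values were seen, because it is a target detected at low density only. It was at least 1.99-fold lower at high density in control medium and at least 2.53-fold lower with bicarbonate. That choice fixed its direction. PPM1A, a phosphatase of SMADs, was higher at high density by 1.33 in control medium and 0.91 with bicarbonate, with 0.48 on its second probe in control medium. At high density its bicarbonate difference was -0.59. TGIF1, a repressor that binds SMADs, was 0.99 higher at high density with bicarbonate and 0.24 in control medium. SMURF1, a ubiquitin ligase that works with SMAD7, was 0.71 higher with bicarbonate at high density. Follistatin (FST), which binds activin, was 0.44 higher at high density in control medium and 0.51 with bicarbonate, both inside the limit, so the LEFTY direction was not shared by this antagonist.

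**Figure D4:**
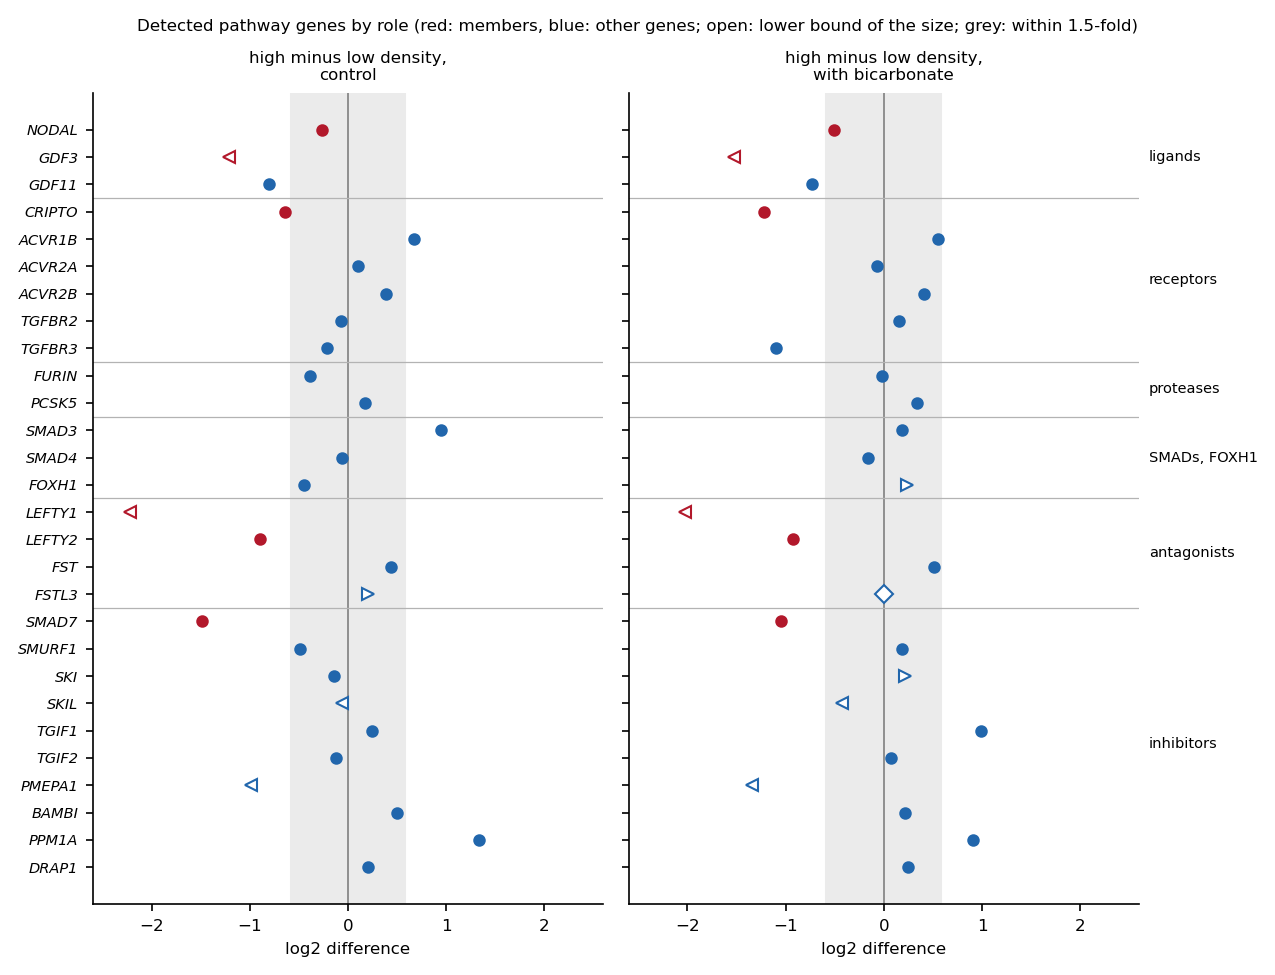
Log2 differences between high and low density (horizontal axis) for every detected pathway gene, grouped by role, in control medium on the left and with bicarbonate on the right. Red marks the members and blue the other genes, open triangles are lower bounds, the open diamond is a bound of 0 and the grey band is the range within 1.5-fold. All red symbols lie below 0, and the blue ones lie on both sides.

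Among NODAL and activin targets named by a probe (10 genes), 4 were detected at high density and 7 at low density. The 3 that were detected at low density only were LEFTY1, PMEPA1 and SKIL, a feedback repressor near background. NODAL, LEFTY1, LEFTY2 and SMAD7 are members described above, so these counts are not separate from theirs. The other detected targets were PMEPA1, SKIL and NANOG. Over all probes, 15213 and 14710 were detected on the high-density arrays and 14128 and 14878 on the low-density arrays, with bicarbonate first. NANOG, a target and a core pluripotency factor, was lower at high density by -0.40 in control medium and by -0.62 with bicarbonate. EOMES, GSC and MIXL1, targets of strong signalling, were detected on none.

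Pluripotency genes gave a mixed picture beside these. POU5F1 differed between high and low density by -0.35 in control medium and 0.24 with bicarbonate, and SOX2 by 0.09 and 0.10. DNMT3B, a de novo DNA methyltransferase, and ZFP42, a zinc finger marker, each differed by -0.84 in control medium. With bicarbonate they differed by -0.30 and -0.31, inside the limit. The other detected DNMT3B probes gave -1.21, -1.10 and -0.49 in control medium and -0.10, -0.46 and -0.51 with bicarbonate. L1TD1, an RNA-binding protein, was lower by -0.64 in control medium and -0.79 with bicarbonate. Of 11 measured pluripotency genes 3 were at least 1.5-fold lower in control medium and 2 with bicarbonate, with medians of 0.01 and -0.13. Of all measured genes, 11.9% and 12% were that much lower. Of the 11 fibroblast markers, 5 were detected on each array, with a summed intensity of 8328 and 9176 at high density and 5812 and 6547 at low density, bicarbonate first in each pair. Most of each sum was THY1, a surface protein of fibroblasts and also of human embryonic stem cells, with log2 values of 12.52 and 12.84 at high density and 12.12 and 12.31 at low density in the same order, so the sum does not describe the collagens. COL1A1 (1.20) and COL1A2 (1.37), collagen chains, were higher at high density with bicarbonate, and by 0.31 and 0.17 in control medium. PDGFRB, a growth factor receptor, was higher by 0.63 in control medium and 0.12 with bicarbonate. At high density COL1A1 was 0.99 higher with bicarbonate than without. At low density COL1A2 differed by -0.61, and by -0.26 on its other detected probe. KDR, the VEGF receptor, was 1.44 higher at high density with bicarbonate and 0.57 in control medium, and TEK was detected at low density only. The part of these other markers in the results on the 8 genes was not tested.

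For the genes detected on all 4 arrays with a range of at least 1, the 3 genes most alike in pattern were found from the root mean square difference of log2 values, each centred on its 4-array mean. CRIPTO was closest to ZNF215 (0.08), ATMIN (0.08) and C11orf58 (0.10). SMAD7 was closest to BRMS1 (0.09), SFXN5 (0.09) and HCCS (0.11), and OTX2 to PIGQ (0.07), STAG1 (0.08) and ZBTB2 (0.09). With 4 arrays such likeness is common: of 8553 genes compared, 67 lay within 0.2 of CRIPTO, 71 of SMAD7 and 51 of OTX2. No other member detected on all 4 arrays was among these nearest genes, and FOXA2, LEFTY1 and GDF3 were not compared.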

How the data were processed

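Total RNA was isolated with a column kit and converted to labelled cRNA for Illumina beadchips, per the labels' protocols. The table of raw values deposited by the authors holds 1 probe intensity per array. Its deposited detection p-value comes in steps of 0.0013, which fits 770 negative controls. A second deposited table holds the authors' log2 values, with a median of 6.02 on each array. Their scale was read from the values (Spearman correlation of 1.00 with the array's own intensities), and how they were made is not given in the sources used here, nor is the scanner software. Groups were taken from the sample titles. Nothing in the labels gives a slide, scan or batch.

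Normalization of the intensities used the neqc function (R 4.3.3, limma 3.58.1; negative controls inferred from detection p-values, offset 16, equal quantiles over the 4 arrays), which was tested on simulated data. It removes any change common to all genes. Later steps used Python 3.11.15, pandas 2.3.3, numpy 2.4.6 and matplotlib 3.10.9.

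Probes were named from the platform annotation: 30098 of 47293 had 1 symbol, 8 several and 17187 none. By gene ID 30059 of them matched a current table, and 0 symbols changed. The probe that stood for a gene was the one of highest mean log2 intensity among those detected on at least 1 array, and the gene counted as measured where it was detected on both arrays. No test was run. Counts use a 1.5-fold size. Members, gene lists (14, with 119 genes, 114 named by a probe) and thresholds were chosen with earlier results of these data known. Named besides the members are, from each list, genes among the 2 largest differences of a comparison and at least 1.5-fold apart, POU5F1, NANOG, SOX2 and the 3 nearest patterns per member, and further genes named for their role or absence were picked after values were seen. The 8 alternatives concerned background, offset, normalization, source of values, detection, a floor on intensity and probe choice.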

Additional observations from a re-analysis of the deposited data

Results flagged for a closer look

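SMAD7 was marked because its bicarbonate differences had opposite signs at the 2 densities: 0.16 at high density and -0.29 at low density, a difference of 0.44 in log2. The difference was not tested, and 33.7% of 8554 genes lay as far from 0. Its second probe gave 0.40 at low density and was not detected at high density with bicarbonate.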

How the results depend on the processing

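Each count of genes at least 1.5-fold apart was recomputed under 8 alternatives and each difference under those that measured the gene on both arrays, and no called difference changed sign. The bounds of FOXA2, LEFTY1 and GDF3 were recomputed under the 4 alternatives that change the values themselves. In control medium 4 genes were lower at high density. That count was 2 without background correction (SMAD7 and OTX2), 2 with a floor of 8 in log2 intensity, where only CRIPTO and OTX2 were measured, and 7 without a detection filter, which lets in FOXA2, LEFTY1 and GDF3. It was 3 with an offset of 50 and with the authors' deposited values, where CRIPTO (-0.57 and -0.58) lay just inside the limit, and 6 at detection p under 0.05, where GDF3 and LEFTY1 count as measured. With bicarbonate the same 4 became 2 with the floor, 3 without background correction, 5 at detection p under 0.05 and 7 without the filter. The single gene higher with bicarbonate at high density, OTX2, became 0 without background correction, with an offset of 50 and with the authors' deposited values, as its difference ran from 0.45 to 0.62. Of the 3 genes higher with bicarbonate at low density, OTX2 dropped below the limit without background correction (0.56) and with the mean of all detected probes (0.48), which left 2. Without background correction the density difference of SMAD7 was -0.89 in control medium and -0.62 with bicarbonate, and that of LEFTY2 -0.46 with bicarbonate. The SMAD7 difference at low density ran from -0.31 to 0.06, the last when both probes were averaged. Over these settings the bounds ran from 3.35 to 6.93 for FOXA2, 2.43 to 4.62 for LEFTY1 and 1.52 to 2.31 for GDF3 in control medium, and from 5.98 to 14.14, 2.16 to 3.87 and 1.71 to 2.69 for these genes with bicarbonate. The bounds were lowest without background correction. Of all recomputed single values 221 were marked close and 10 moved, and of the counts 24 close and 8 moved. Close does not mean unchanged. Counts of 3 and 6 against 4 in control medium were marked close. So was the density difference of LEFTY2 in control medium without background correction, at -0.45 against -0.90. No paired analysis was possible because each group holds 1 array and the labels give no replicate numbers, and for the same reason no array could be left out. Signal over background limits NODAL, LEFTY2, SMAD7 and GDF3, which lie near the detection limit at high density.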
